A study of Mus musculus with 14 samples.

Results

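Collagen crosslinking enzymes were examined in mouse left ventricle as a set of 8 genes, selected by name from the 49315 genes of the deposited count table. They comprise 5 lysyl oxidases (Lox, Loxl1, Loxl2, Loxl3 and Loxl4) and 3 lysyl hydroxylases (Plod1, Plod2 and Plod3). All 8 genes passed the filter on low counts that left 15292 genes for testing. The RNA came from male mice that underwent transverse aortic constriction (TAC), which narrows the aorta and raises the pressure load on the left ventricle, or a Sham operation. Surgery took place at 10 to 12 weeks of age and hearts were taken 5 weeks later. Wildtype (WT) mice were compared with HCN4F mice, a knock-in line in which a tyrosine of the pacemaker channel HCN4 is replaced by phenylalanine, a gain-of-function exchange. There were 4 WT-Sham libraries, 4 HCN4F-Sham libraries, 2 WT-TAC libraries (replicates 2 and 3) and 4 HCN4F-TAC libraries. The knock-in is present in every cell and is not restricted to the heart. Strain background and zygosity are not given in the sources used here. Poly(A) RNA was sequenced from whole tissue, and the values are read counts per gene.

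Fibrillar collagens gain their tensile strength from covalent crosslinks between neighbouring molecules. Lysyl hydroxylases act first, inside the endoplasmic reticulum, where they hydroxylate lysine residues of the new collagen chains and thereby set which type of crosslink can form. Lysyl oxidases act outside the cell, where these copper enzymes oxidise lysine and hydroxylysine residues to reactive aldehydes that condense into crosslinks, in collagen and in elastin. Both steps are known for their part in the stiffening of the fibrotic heart.

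The catalytic core is what makes the oxidases a family. The stretch that binds the copper ion is shown for 3 of them, because the stretches that these genes share bear on whether reads can be assigned to one gene. Each line gives 33 bases of coding sequence, 5′ to 3′, from the GENCODE release 21 transcripts (GRCm38), with the 4 histidine codons in capitals.

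Loxl2: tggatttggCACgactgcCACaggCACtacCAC

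Loxl3: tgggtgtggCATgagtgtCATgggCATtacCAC

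Loxl4: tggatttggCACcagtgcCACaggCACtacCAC

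Loxl2 and Loxl4 shared 31 of these 33 bases, and Loxl3 shared 25 with each of them. The most alike pair in this window was Lox and Loxl1, with 32 of 33 bases shared. Over the whole aligned coding sequence, core included, identity between oxidases was 55.1% (Loxl1 and Loxl3) to 67.6% (Lox and Loxl1), and between hydroxylases it was 60.6% to 65.3%. The longest run of identical bases between any pair of members was 32, in Lox and Loxl1.

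The plot of CPM in each library shows all 8 genes side by side. CPM is the read count of a gene relative to the library's total, with totals scaled by edgeR's TMM method. The libraries held 22309914 to 35210939 reads on genes, so that 3 reads correspond to 0.0852 to 0.134 CPM. This limit covers counting error only. Replicates of 1 group differed by 6.59 to 66.0 in chi-square per gene, where counting noise alone gives about 1.

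**Figure D1:**
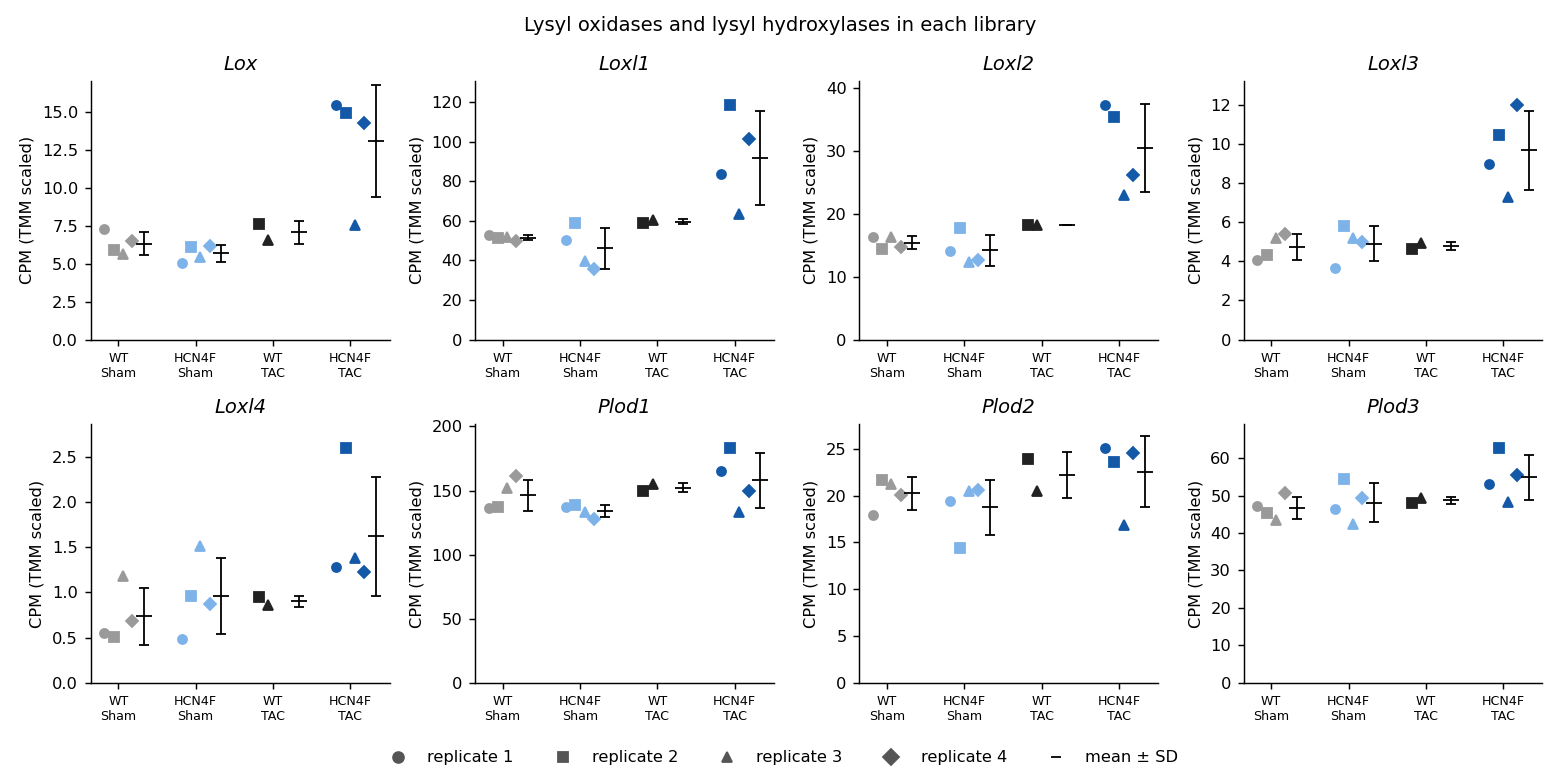
CPM (TMM scaled, axes from 0) of the 5 lysyl oxidases and 3 lysyl hydroxylases in each of the 14 libraries, by group; symbols mark the replicate number and the bars give mean ± SD. In Lox, Loxl1, Loxl2 and Loxl3 every HCN4F-TAC library lies above every HCN4F-Sham library, whereas HCN4F-TAC and HCN4F-Sham overlap in Loxl4 and the 3 Plod genes.

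Levels were first compared between genes per kilobase of exon. In WT-Sham hearts Plod1 was the most abundant at 21.6 ± 1.78 CPM per kb (SD, n = 4), followed by Loxl1 at 15.6 ± 0.367 and Plod3 at 10.3 ± 0.675. Plod2 (3.75 ± 0.319), Loxl2 (2.85 ± 0.189), Lox (1.32 ± 0.153) and Loxl3 (1.03 ± 0.141) were lower, and Loxl4 was lowest at 0.174 ± 0.0737 CPM per kb. The libraries of neighbours in this order did not overlap, and Lox and Loxl3 came closest, at 1.18 to 1.52 and 0.883 to 1.17 CPM per kb. Loxl1, the oxidase best known for its role in elastic fibres, thus accounted for 74.4% ± 1.01 of the oxidase mRNA per kb in WT-Sham hearts (SD, n = 4). Its share was 72.9% ± 3.6 in HCN4F-Sham (n = 4), 74.7% ± 0.787 in WT-TAC (n = 2) and 71.7% ± 3.31 in HCN4F-TAC (n = 4).

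In HCN4F-TAC hearts Loxl1 had the highest mean of the 8 genes, at 27.9 ± 7.21 CPM per kb against 23.4 ± 3.16 for Plod1 (SD, n = 4). Loxl1 exceeded Plod1 in replicates 1, 2 and 4, at 25.4, 36.0 and 30.8 against 24.4, 27.1 and 22.2 CPM per kb, but not in replicate 3, at 19.2 against 19.7. The spreads of both genes overlapped. Summed over the 5 oxidases the level was 21 ± 0.53 CPM per kb in WT-Sham, 19.1 ± 3.59 in HCN4F-Sham, 24.2 ± 0.22 in WT-TAC and 38.7 ± 9.01 in HCN4F-TAC hearts. The 4 HCN4F-TAC sums ranged from 27.0 to 48.6 and lay above all other libraries. Summed over the 3 hydroxylases it was 35.7 ± 2.2, 34.0 ± 0.989, 37.4 ± 0.297 and 39.7 ± 4.89 CPM per kb in the same order. The HCN4F-TAC sums (33.6 to 45.4) overlapped those of each other group, while WT-TAC (37.2 to 37.6) lay above HCN4F-Sham (32.9 to 35.2).

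**Figure D2:**
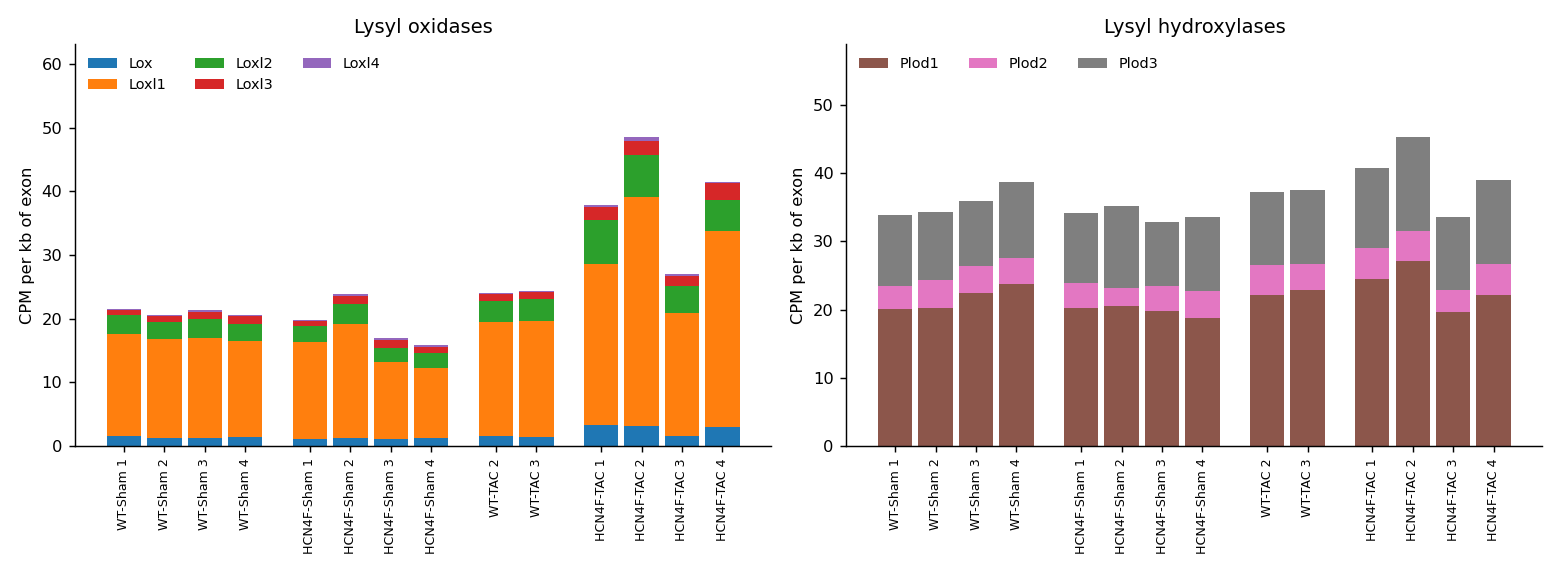
Stacked CPM per kb of exon (linear axis from 0) of the lysyl oxidases (left) and lysyl hydroxylases (right) in each library. The oxidase columns of HCN4F-TAC reach 27.0 to 48.6 and are dominated by Loxl1, while the hydroxylase columns of HCN4F-TAC (33.6 to 45.4) overlap those of the other groups.

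The question of the TAC comparison is how pressure overload changed these genes in each genotype. In WT hearts 0 of 8 members changed (adjusted p under 0.05 in the quasi-likelihood test of edgeR, Benjamini-Hochberg adjusted over all genes that were tested), where 2.92% of all tested genes were higher and 1.62% lower. At an unadjusted p under 0.05 the count was also 0 of 8, against 22% of all tested genes, and with DESeq2 on all groups it was 0 of 8, against 8.76% of all genes with an adjusted p. In HCN4F hearts 4 of 8 members rose and none fell, where 7.2% of all tested genes were higher and 6.42% lower. The 4 that rose were Lox, Loxl1, Loxl2 and Loxl3. Of these, Lox and Loxl2 also exceeded a log2 fold change of 1, a bound that 1.58% of all tested genes passed upwards. The median log2 fold change of the 8 members was 0.14 in WT and 0.88 in HCN4F hearts, against -0.02 and -0.01 over all tested genes.

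Lox, the founding member of the oxidases, gave 7.28, 5.91, 5.62 and 6.46 CPM in WT-Sham replicates 1 to 4 and 5, 6.11, 5.46 and 6.13 CPM in those of HCN4F-Sham. In TAC hearts it gave 7.60 and 6.52 CPM in WT replicates 2 and 3, and 15.5, 14.9, 7.55 and 14.2 CPM in HCN4F replicates 1 to 4. All HCN4F-TAC libraries were above all Sham libraries. Above those of HCN4F-Sham they lay in 4 of 8 members (Lox, Loxl1, Loxl2 and Loxl3) and in 7.95% of all tested genes. In Lox, however, replicate 3 stood far below the other 3 and within the WT-TAC range. The log2 fold change after TAC was 1.20 (SE 0.18, adjusted p = 0.000495, edgeR) in HCN4F and 0.16 (SE 0.22, adjusted p = 0.721, edgeR) in WT hearts. Without HCN4F-TAC replicate 3 the HCN4F value was 1.39 (SE 0.11, adjusted p = 9.32e-07, edgeR). Replicate 3 held the lowest Lox value of its group, so leaving it out raises the estimate by itself.

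Loxl2, which acts on collagen IV of basement membranes as well as on fibrillar collagens, gave 16.3, 14.4, 16.2 and 14.6 CPM in WT-Sham and 14, 17.7, 12.2 and 12.6 CPM in HCN4F-Sham replicates 1 to 4. It reached 18.2 CPM in both WT-TAC libraries and 37.3, 35.3, 23 and 26.1 CPM in HCN4F-TAC replicates 1 to 4. WT-TAC lay above every WT-Sham library, as it did in Loxl1 and in 19.2% of all tested genes. HCN4F-TAC lay above all other libraries, as in Loxl1, Loxl3 and 2.26% of all tested genes. The log2 fold change was 1.11 in HCN4F (SE 0.14, adjusted p = 0.000196, edgeR) and 0.24 in WT hearts (SE 0.18, adjusted p = 0.438, edgeR).

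Loxl1 gave 52.7, 51.4, 51.8 and 49.8 CPM in WT-Sham and 50.2, 58.7, 39.6 and 35.9 CPM in HCN4F-Sham replicates 1 to 4. In TAC hearts it gave 58.7 and 60.4 CPM in WT and 83.7, 119, 63.4 and 102 CPM in HCN4F. The 4 HCN4F-TAC libraries were again above all others, although replicate 3 exceeded the higher WT-TAC library only narrowly. The log2 fold change was 1.00 in HCN4F hearts, just below the bound of 1 before rounding (SE 0.17, adjusted p = 0.00203, edgeR). In WT hearts it was 0.21 (SE 0.21, adjusted p = 0.588, edgeR). When only the 2 WT groups were fitted this value was 0.23 and passed the test (adjusted p = 0.0372, edgeR), as did 13.6% of the genes tested in that fit. Loxl1 lies 0.51 Mb from Hcn4 on chromosome 9, next to the knock-in, and its genotype comparison in Sham hearts is therefore given below with that position.

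Loxl3, an oxidase with a known role in the development of palate and spine, gave 4.06 to 5.39 CPM in WT-Sham, 3.65 to 5.79 CPM in HCN4F-Sham and 4.64 and 4.92 CPM in WT-TAC libraries. In HCN4F-TAC replicates 1 to 4 it gave 8.99, 10.5, 7.31 and 12 CPM, above all other libraries. The log2 fold change was 0.98 in HCN4F (SE 0.16, adjusted p = 0.000818, edgeR) and 0.01 in WT hearts (SE 0.20, adjusted p = 0.982, edgeR). On the genome, 535 exonic bases of Loxl3 (11.6%) overlap the oppositely transcribed Htra2. Htra2 collected 9355 reads over the 14 libraries and Loxl3 2386, and the use of strand in counting is not given in the sources used here, so that reads from this stretch could belong to either gene.

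Loxl4 was detected at 13 to 79 reads per library. Its CPM was 0.508 to 1.18 in WT-Sham, 0.489 to 1.52 in HCN4F-Sham and 0.858 and 0.944 in WT-TAC libraries. HCN4F-TAC replicates 1 to 4 gave 1.28, 2.60, 1.38 and 1.22 CPM, of which only replicate 2 exceeded the highest Sham library. The log2 fold change of 0.77 in HCN4F hearts did not pass the test (SE 0.33, adjusted p = 0.139, edgeR), and without replicate 2 it was 0.43 (SE 0.33, adjusted p = 0.465, edgeR). In WT hearts the value was 0.30 (SE 0.44, adjusted p = 0.732, edgeR), and it was 0.16 and 0.61 without WT-Sham replicates 2 and 3.

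None of the 3 hydroxylases passed the test in either genotype. Plod1, which hydroxylates lysines in the triple helix of collagen, gave 136, 137, 152 and 161 CPM in WT-Sham, 137, 139, 133 and 127 CPM in HCN4F-Sham, 150 and 155 CPM in WT-TAC and 165, 183, 133 and 150 CPM in HCN4F-TAC libraries. Its log2 fold change after TAC was 0.06 in WT (SE 0.11, adjusted p = 0.805, edgeR) and 0.24 in HCN4F hearts (SE 0.09, adjusted p = 0.0873, edgeR). Replicate 3 of HCN4F-TAC lay within the range of HCN4F-Sham.

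Plod2, the hydroxylase of the collagen telopeptides and the one tied to the hydroxylysine-derived crosslinks of fibrosis, gave 17.9 to 21.7 CPM in WT-Sham and 14.4 to 20.6 CPM in HCN4F-Sham libraries. After TAC it gave 23.9 and 20.5 CPM in WT and 25.1, 23.6, 16.9 and 24.6 CPM in HCN4F hearts. The log2 fold change was 0.13 in WT (SE 0.16, adjusted p = 0.664, edgeR) and 0.26 in HCN4F hearts (SE 0.13, adjusted p = 0.196, edgeR). In Plod2, 346 exonic bases overlap the oppositely transcribed Gm38391, which collected 339 reads over the 14 libraries.

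Plod3 is a multifunctional enzyme that also attaches glucose to galactosylated hydroxylysine. It gave 43.5 to 50.7 CPM in WT-Sham, 42.3 to 54.5 in HCN4F-Sham, 48 and 49.5 in WT-TAC and 48.4 to 62.8 CPM in HCN4F-TAC libraries. Its log2 fold change was 0.06 in WT (SE 0.11, adjusted p = 0.778, edgeR) and 0.19 in HCN4F hearts (SE 0.09, adjusted p = 0.168, edgeR). Of its exonic bases, 529 (11.7%) overlap Znhit1 on the opposite strand, which collected 12121 reads against 19275 for Plod3. Without HCN4F-TAC replicate 3, Plod1 (0.31, adjusted p = 0.019) and Plod2 (0.38, adjusted p = 0.0308) also passed the edgeR test. The members that rose then numbered 6 of 8, where 8.22% of all tested genes were higher in that setting. That library was the lowest of its group in Plod1 and Plod2, so leaving it out raises these values by itself.

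**Figure D3:**
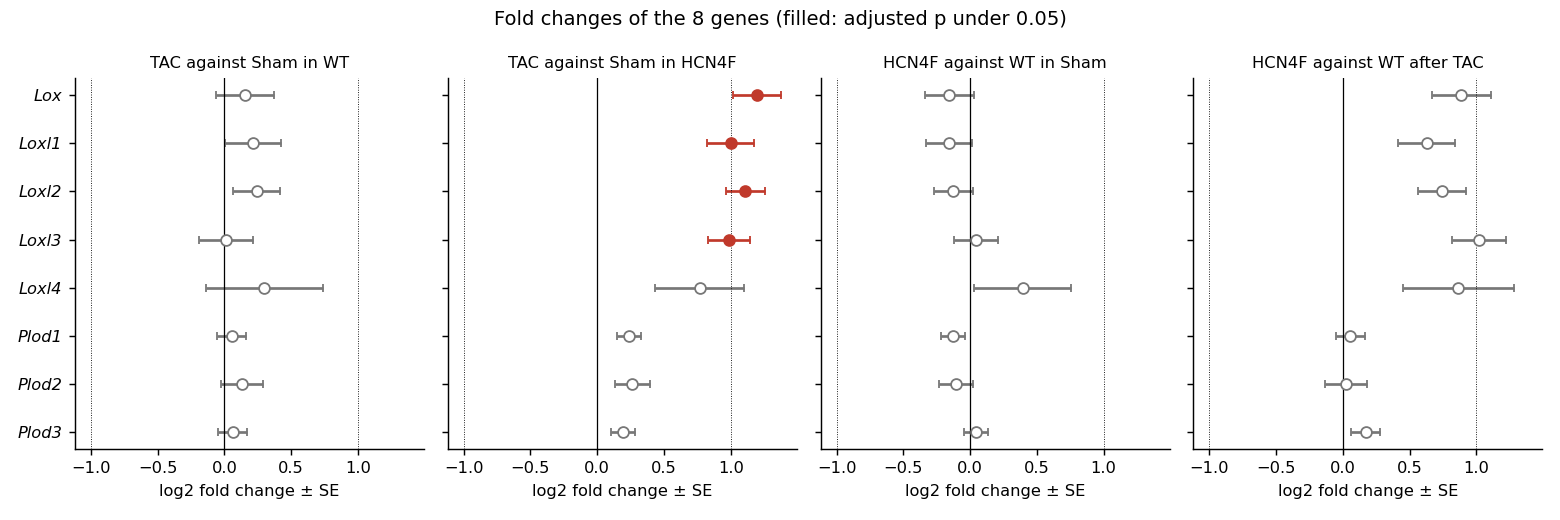
Log2 fold change ± SE (edgeR) of the 8 genes in the 4 comparisons; filled red points passed an adjusted p of 0.05 and dotted lines mark 1 and -1. Only Lox, Loxl1, Loxl2 and Loxl3 in HCN4F hearts after TAC are filled, at 0.98 to 1.20.

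The genotypes were then compared within each operation. In Sham hearts 0 of 8 members differed between HCN4F and WT (edgeR, adjusted p under 0.05), where 0.471% of all tested genes did. At an unadjusted p under 0.05 the count was 0 of 8 as well, against 15.2% of all tested genes, and with DESeq2 on all groups it was 0 of 8, against 2.26% of all genes with an adjusted p. The log2 differences were -0.16 for Lox (SE 0.18), -0.16 for Loxl1 (SE 0.17), -0.12 for Loxl2 (SE 0.15) and -0.13 for Plod1 (SE 0.09). For Loxl4 the difference was 0.39 (SE 0.36), and it depended on single libraries. It was 0.08 and 0.26 without HCN4F-Sham replicate 3 and WT-Sham replicate 2, and 0.61 and 0.71 without HCN4F-Sham replicate 1 and WT-Sham replicate 3. The libraries of both groups overlapped in all 8 genes (3.89% of all tested genes were higher and 4.67% lower without overlap), Loxl1 beside the knock-in locus included.

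After TAC, 0 of 8 members differed between genotypes (edgeR, adjusted p under 0.05), where 0.111% of all tested genes did. At an unadjusted p under 0.05 there were 4 of 8 members and 12.5% of all tested genes. The fitted differences in the oxidases were 1.02 for Loxl3 (SE 0.20, adjusted p = 0.0728), 0.89 for Lox (SE 0.22, adjusted p = 0.12), 0.86 for Loxl4 (SE 0.42, adjusted p = 0.408), 0.74 for Loxl2 (SE 0.18, adjusted p = 0.11) and 0.63 for Loxl1 (SE 0.21, adjusted p = 0.251). Without HCN4F-TAC replicate 2 the value of Loxl4 was 0.52 (SE 0.39, adjusted p = 0.716, edgeR). In 4 of 8 members (Loxl1, Loxl2, Loxl3 and Loxl4) every HCN4F-TAC library was above both WT-TAC libraries, as in 11.3% of all tested genes. The hydroxylases differed by 0.02 (Plod2) to 0.17 (Plod3) and overlapped. With n = 2 in WT-TAC this comparison depended on the test and on 1 library. DESeq2 on all groups gave 3 of 8 members (Lox, Loxl2 and Loxl3, adjusted p = 0.0155, 0.0123 and 0.000919), where 1.59% of all genes with an adjusted p differed. Without HCN4F-TAC replicate 3, edgeR gave 4 of 8 (Lox, Loxl1, Loxl2 and Loxl3, adjusted p = 0.000424, 0.0289, 0.00835 and 0.00338), where 2.97% of all tested genes differed. That library was the lowest of its group in each of these genes, so leaving it out raises the differences by itself.

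Whether the TAC response itself differed between genotypes was tested as an interaction. For 0 of 8 members it passed (edgeR, adjusted p under 0.05), as for 0.0% of all tested genes, while 4 of 8 members and 1418 of the 15292 tested genes had an unadjusted p under 0.05 (9.27% of all tested genes). The difference of the responses was 1.04 for Lox (SE 0.29, adjusted p = 0.404), 0.97 for Loxl3 (SE 0.26, adjusted p = 0.394), 0.86 for Loxl2 (SE 0.23, adjusted p = 0.394) and 0.79 for Loxl1 (SE 0.27, adjusted p = 0.466, all edgeR). DESeq2 on all groups gave 0 of 8 members and 33 genes, or 0.242% of those with an adjusted p. Without HCN4F-TAC replicate 3, Lox (1.23, adjusted p = 0.0103) and Loxl2 (0.98, adjusted p = 0.0425) passed the edgeR test, as did 0.51% of all tested genes. Here too the library left out was the lowest of its group in both genes, which raises these values by itself. The larger response of the oxidases in HCN4F hearts was therefore not shown to differ from that of WT hearts with all 14 libraries.

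Cell type markers were summed in each library to see what moved with the oxidases. The list for activated fibroblasts (Postn, Cilp, Comp, Cthrc1 and Fap) summed to 26.1 to 38.3 CPM in HCN4F-Sham and 29.1 to 34.1 CPM in WT-Sham libraries. It reached 49.9 and 47.5 CPM in WT-TAC replicates 2 and 3, and 162, 302, 66.7 and 198 CPM in HCN4F-TAC replicates 1 to 4. Replicate 3 was again the lowest of its group. Cthrc1 passed the filter on low counts only through the HCN4F-TAC libraries and is left out of the count. Of the other 4 markers 3 rose after TAC in HCN4F hearts (edgeR), where 7.2% of all tested genes were higher. On the list for fibroblasts at large 2 of 6 rose, Mfap4 (log2 fold change 1.85) and Pi16 (1.17). The rest of that list, Pdgfra, Tcf21, Dpt and Cd248, did not pass the test. The list summed to 155 to 212 CPM in HCN4F-Sham and 202 to 329 CPM in HCN4F-TAC libraries, a rise that most of its genes did not show in the test. The part of these cells in the rise of the oxidases was not tested. In whole tissue, more cells of a type and more RNA per cell cannot be told apart.

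Markers of ventricular cardiomyocytes summed to 47500 to 50600 CPM in HCN4F-Sham and 37400 to 44600 CPM in HCN4F-TAC libraries. In HCN4F hearts 3 of 5 fell while 1 rose, where 6.42% of all tested genes were lower and 7.2% higher. The sum was also lower after TAC in WT hearts, at 48800 to 50300 CPM against 52500 to 54900 CPM in WT-Sham libraries. Markers of endothelium, macrophages, smooth muscle, epicardium and blood gave no member that changed in HCN4F hearts. Atrial markers (Myl4, Myl7 and Sln) summed to 31.0 CPM in HCN4F-TAC replicate 2 and to 1.24 to 4.51 CPM in all other libraries, with Sln at 0 in all WT-Sham libraries. Without this library the rises remained, with log2 fold changes in HCN4F hearts of 1.12 for Lox, 0.85 for Loxl1, 1.02 for Loxl2 and 0.94 for Loxl3 (edgeR, adjusted p = 0.00243, 0.00583, 0.00095 and 0.00386).

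Genes that act with the crosslinking enzymes were described from 5 lists, 57 genes in all, of which 56 were tested. In WT hearts 3 of 56 rose after TAC and none fell, where 2.92% of all tested genes were higher and 1.62% lower. They were Hif1a, an oxygen-sensitive transcription factor (log2 fold change 0.63, adjusted p = 0.00634), Atp7a, the pump that loads lysyl oxidases with copper (0.66, adjusted p = 0.049), and Col4a2 of the basement membrane (0.51, adjusted p = 0.0319, all edgeR). P4ha3 and Col11a1 passed the filter on low counts only through the HCN4F-TAC libraries, so that a rise there was a condition of being tested, and both are left out of the counts in HCN4F hearts. Of the other 54 genes 27 rose in HCN4F hearts and 2 fell, with a median log2 fold change of 0.36, where 7.2% of all tested genes were higher and 6.42% lower. Without HCN4F-TAC replicate 2 the genes that rose numbered 19 of 54 (4.88% of all tested genes), and without replicate 3 they numbered 31 of 54 (8.22%).

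The substrates had the highest median of the 5 lists. Of 10 collagen and elastin genes, Col11a1 left out, 8 rose in HCN4F hearts, with a median log2 fold change of 0.82. Of all tested genes 7.2% were higher. Without HCN4F-TAC replicate 2, 7 of the 10 rose (4.88% of all tested genes). Col1a1, the main chain of collagen I, went from a mean of 155 to 342 CPM (log2 fold change 1.14, SE 0.18, adjusted p = 0.00125, edgeR), against 157 and 187 CPM in WT-Sham and WT-TAC. Col5a2, a chain of the fibril-nucleating collagen V, rose by 1.1 on the log2 scale (SE 0.13, adjusted p = 8.23e-05, edgeR). Col11a1 was counted with 1 to 5 reads in HCN4F-Sham and 5 to 19 reads in HCN4F-TAC libraries.

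Of 17 genes for processing and assembly outside the cell, 9 rose in HCN4F hearts, where 7.2% of all tested genes were higher. Without HCN4F-TAC replicate 2 they numbered 6 of 17 (4.88% of all tested genes). Fmod, a proteoglycan that binds collagen fibrils, went from a mean of 1.45 to 10.3 CPM (log2 fold change 2.85, SE 0.76, adjusted p = 0.0289). Postn, a matricellular protein that also stands on the activated fibroblast list, went from 22.7 to 95.2 CPM (2.07, SE 0.32, adjusted p = 0.00189), and Fn1, fibronectin, from 56.6 to 99.6 CPM (0.82, SE 0.19, adjusted p = 0.0114, all edgeR).

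The list for modification and folding in the endoplasmic reticulum, to which the lysyl hydroxylases belong by function, held 17 genes after P4ha3 was left out. Of these, 5 rose and 1 fell in HCN4F hearts, where 7.2% of all tested genes were higher and 6.42% lower. Without HCN4F-TAC replicate 2, 3 rose (4.88% of all tested genes), and without replicate 3, 7 rose (8.22%). P3h2, a prolyl 3-hydroxylase, rose by 1.04 on the log2 scale (SE 0.14, adjusted p = 0.000236, edgeR). P4ha1, a catalytic subunit of prolyl 4-hydroxylase, rose by 0.76 (SE 0.17, adjusted p = 0.00771, edgeR), from a mean of 64.1 to 109 CPM, while both WT groups were at 104 and 106 CPM. Between genotypes the fitted difference of P4ha1 was 0.04 after TAC (SE 0.20, adjusted p = 0.961) and -0.70 in Sham hearts (SE 0.16, adjusted p = 0.0758, both edgeR). P4ha2, a second such subunit, was lower in Sham hearts of HCN4F mice (-0.43, SE 0.08, adjusted p = 0.0282, edgeR), the single gene of the 56 that differed there. P4ha3 was counted with 1 to 3 reads in HCN4F-Sham and 3 to 20 reads in HCN4F-TAC libraries.

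Of 4 tested genes for copper supply 1 changed in HCN4F hearts, where 6.42% of all tested genes were lower. This was Slc31a2, a copper transporter-like protein, which fell by 0.40 (SE 0.09, adjusted p = 0.00522, edgeR). In WT hearts its log2 fold change was -0.37 (SE 0.10, adjusted p = 0.0516), and the interaction was -0.03 (SE 0.13, adjusted p = 0.968, both edgeR). Of 6 possible inducers (TGF-beta ligands, Ctgf and HIF genes), 5 rose in HCN4F hearts, where 7.2% of all tested genes were higher. Without HCN4F-TAC replicate 2 they numbered 3 of 6 (4.88% of all tested genes). Any action of these genes on the oxidases was not tested. Ctgf, a matricellular growth factor, went from 65.9 to 246 CPM (log2 fold change 1.90, SE 0.30, adjusted p = 0.00184), Tgfb2, a TGF-beta ligand, from 10.4 to 24.3 CPM (1.21, SE 0.17, adjusted p = 0.000305), and Hif1a from 38.8 to 53.9 CPM (0.47, SE 0.09, adjusted p = 0.00214, all edgeR).

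**Figure D4:**
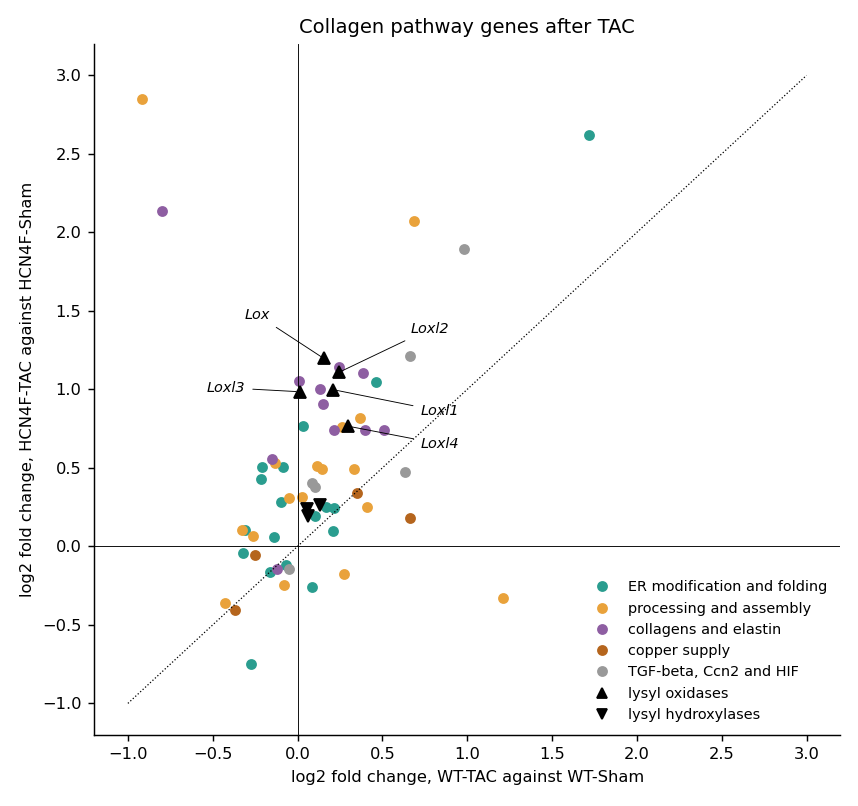
Log2 fold change after TAC in WT (horizontal) and HCN4F hearts (vertical) for 56 tested genes of the 5 lists (circles, by list) and the 8 crosslinking enzymes (triangles); the dotted line marks equal change. The 5 oxidases lie at 0.01 to 0.30 in WT and 0.77 to 1.20 in HCN4F hearts, among the collagens, and the 3 hydroxylases lie at 0.06 to 0.13 and 0.19 to 0.26.

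Enzyme mRNA was also set against collagen I mRNA within each library, as the log2 ratio of CPM to that of Col1a1, a quantity that does not depend on scaling. Col1a1 gave 351, 417, 215 and 383 CPM in HCN4F-TAC replicates 1 to 4, against 130 to 206 CPM in the Sham libraries of both genotypes. For Lox the ratio was -4.94, -5.07, -4.59 and -4.41 in HCN4F-Sham and -4.51, -4.81, -4.83 and -4.75 in HCN4F-TAC replicates 1 to 4, a difference of 0.03 between means (exact permutation test, two-sided, p = 0.857). For Loxl1 the difference was -0.14 (p = 0.171, exact permutation) and for Loxl2 it was -0.03 (p = 0.886, exact permutation). The groups overlapped in all 3 oxidases.

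Of the hydroxylases, Plod1 and Plod2 were set against Col1a1. Plod1 gave -0.17, -0.57, 0.03 and -0.03 in HCN4F-Sham and -1.09, -1.19, -0.69 and -1.35 in HCN4F-TAC replicates 1 to 4, without overlap. Of all tested genes other than Col1a1, 50.0% had a ratio to Col1a1 that was lower in HCN4F-TAC without overlap. The difference was -0.89 with p = 0.0286 in the exact permutation test, the smallest value that 4 against 4 libraries allow, and 0.533 after Benjamini-Hochberg adjustment over the 20 ratio tests. Plod2 gave -2.99, -3.83, -2.68 and -2.66 in HCN4F-Sham and -3.80, -4.14, -3.67 and -3.96 in HCN4F-TAC libraries, a difference of -0.86 (p = 0.0857, adjusted p = 0.533, exact permutation). HCN4F-Sham replicate 2 lay within the TAC range. In WT hearts the differences after TAC were -0.18 for Plod1 and -0.11 for Plod2, and 2 against 4 libraries cannot give less than p = 0.133 in this exact test. Given these smallest values, no ratio could pass after adjustment over the 20 tests whatever its size, so the adjusted values carry no information on these ratios.

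**Figure D5:**
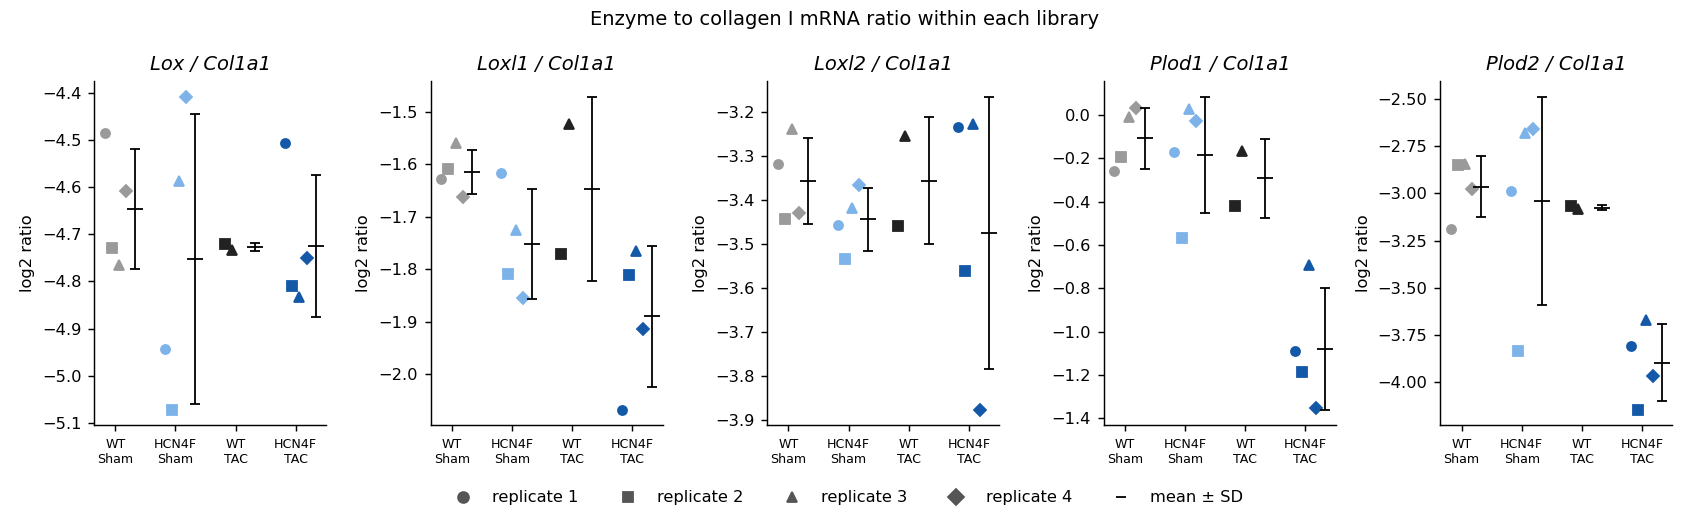
Log2 ratio of enzyme CPM to Col1a1 CPM in each library for Lox, Loxl1, Loxl2, Plod1 and Plod2, by group, with mean ± SD; each panel has its own log2 axis. Plod1 in HCN4F-TAC (-1.35 to -0.69) lies below all other libraries, while the Lox, Loxl1 and Loxl2 ratios of HCN4F-TAC overlap those of HCN4F-Sham.

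The genes with the most similar profile over the 14 libraries are given for 4 members as a description, without a test, since all points share the groups and the scaling of the libraries. For Loxl1 the closest was Col1a1 (Pearson r = 0.971, Spearman rho = 0.943), followed by Col15a1 (r = 0.957) and Aldh18a1, an enzyme of proline synthesis (r = 0.954). For Lox they were Endod1 (r = 0.977, rho = 0.864), Pon2 (r = 0.976, rho = 0.969) and Emp1 (r = 0.97, rho = 0.903). For Loxl2 they were Gpr153 (r = 0.969), Adamtsl2 (r = 0.956) and Dbn1 (r = 0.956). Plod2 had none as close, with Osbpl10 first (r = 0.923, rho = 0.877), then Zfp568 (r = 0.867) and 2810474O19Rik (r = 0.86).

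The positions of the members, all on GRCm38 and all protein-coding, are as follows. Loxl1 lies on chromosome 9 from 58287738 to 58313186 on the minus strand, and Plod2 on chromosome 9 from 92542223 to 92608428 on the plus strand, 33.7 Mb from Hcn4. Loxl2 spans 69609068 to 69695834 on the plus strand of chromosome 14 and Loxl3 spans 83034173 to 83052562 on the plus strand of chromosome 6. Loxl4 is found at 42593982 to 42612813 on the minus strand of chromosome 19, Plod1 at 147909753 to 147936767 on the minus strand of chromosome 4 and Plod3 at 136987019 to 136996648 on the plus strand of chromosome 5. Lox lies on the minus strand of chromosome 18 from 52516067 to 52529867.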

How the data were processed

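Left ventricular RNA was poly(A) selected and sequenced on an Illumina platform. The authors deposited raw counts, whole numbers of reads per gene without normalization. The submitters' processing notes name the build GRCm38. Aligner, counting program, annotation and use of strand are not given in the sources used here. The count table holds 2 further columns of values that match no sample assigned here and were not used. The study describes more WT-TAC samples, which were not analysed here.

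Libraries were grouped by their labels. The labels state no pairing and no batch. Library titles carry numbers that in part follow each other within a group, and what these numbers stand for is not given. Cohorts shared within a group could therefore not be modelled or told apart from the group. The p-values measure only the spread between these libraries. Counts were filtered with filterByExpr by group (15292 of 49315 genes kept) and scaled with TMM in edgeR 4.0.16 (R 4.3.3). All 14 libraries were fitted in 1 model, and comparisons used the robust quasi-likelihood test, with p-values adjusted by Benjamini-Hochberg across the tested genes. Genes were taken as changed where the adjusted p was under 0.05. SE is that of the log2 fold change, and CPM carries no pseudocount. For similarity of profiles, log2 CPM used a prior count of 2. Ratios to Col1a1 were compared with exact permutation tests. Positions, exon lengths and coding sequences came from GENCODE mouse release 21, which holds 99.3% of the gene IDs.

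The 8 genes, the gene lists and the tests were chosen with earlier results of these data known. All 8 genes are named. Each list is given by counts and, for each comparison separately, by at most 3 members with the largest log2 fold change among those that changed in it. For 4 genes the 3 most correlated genes are named. The alternatives were DESeq2 1.42.0 on all groups, either tool on the 2 groups of a comparison alone, DESeq2 size factors, no filter, the replicate number as a block, each library left out in turn, and Col3a1 in place of Col1a1. Counts over the lists without HCN4F-TAC replicates 2 and 3, and without list genes that passed the low-count filter only through HCN4F-TAC, were added after seeing the data. The steps were tested on simulated data. Plots used Python 3.11.15 with matplotlib 3.10.9.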

Additional observations from a re-analysis of the deposited data

Results flagged for a closer look

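Within groups of 4 libraries, a library was marked where its gap to the nearest other library, divided by the range of the group, exceeded Dixon's 95% critical value of 0.829. Over 39 such groups, 2 libraries were marked, and chance marks about 1 group in 20. Lox gave 7.55 CPM in HCN4F-TAC replicate 3, where the other 3 libraries gave 14.2 to 15.5 CPM (gap over range 0.844). The same library had the lowest sum of activated fibroblast markers in its group, 66.7 against 162 to 302 CPM. Loxl4 gave 2.60 CPM in HCN4F-TAC replicate 2, where the others gave 1.22 to 1.38 CPM (gap over range 0.886). This library had the highest sum of atrial markers, 31.0 against 1.24 to 4.51 CPM. The part of these markers in either value was not tested.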

How the results depend on the processing

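The rise of Lox, Loxl1, Loxl2 and Loxl3 after TAC in HCN4F hearts passed the test under all 14 alternatives run for it, with adjusted p-values of up to 0.0217. Members that changed after TAC in WT hearts numbered 1 with DESeq2 or edgeR on the compared groups in place of 0. Between genotypes after TAC they numbered 3 with DESeq2 on all groups, 2 with DESeq2 on the compared groups, 1 without a filter, and 0 to 4 when libraries were left out. For the interaction they numbered 0 to 2 when libraries were left out. Both upper values came without HCN4F-TAC replicate 3, the lowest library of its group in Lox, Loxl1, Loxl2 and Loxl3. Leaving out the lowest library raises such differences by itself, and the cause of its low values was not tested.

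Counts over all genes depended more on the setting. For TAC in WT hearts, 694 genes changed, against 1194 with DESeq2 on all groups, 1901 with DESeq2 and 2009 with edgeR on the compared groups, and 11 (without WT-TAC replicate 3) to 544 when libraries were left out. For TAC in HCN4F hearts 2082 changed, against 1286 with edgeR on the compared groups and 1329 (without HCN4F-TAC replicate 2) to 2394 when libraries were left out. Between Sham groups 72 changed, against 334 and 400 with DESeq2 on all or on the compared groups, 219 without a filter and 19 to 567 (without HCN4F-Sham replicate 1). Between TAC groups 17 changed, against 226, 169 and 146 in the same order, 3 with edgeR on the compared groups and 6 to 454 (without HCN4F-TAC replicate 3). The interaction gave 0 genes, against 33 with DESeq2 on all groups, 17 without a filter and 0 to 78 (without HCN4F-TAC replicate 3).

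Deviations of same-numbered libraries from their group means correlated at -0.12 to 0.159, and WT-Sham replicate 1 correlated best with HCN4F-Sham replicate 2 (0.201). Such values cannot exclude a pairing or a shared batch. The WT-TAC libraries deviate as mirror images of each other, so their correlations carry little information. The numbers were not taken as pairs in the main fit. With the replicate block, 225, 1974, 41, 8 and 0 genes changed in the 5 comparisons, and 4 members rose in HCN4F hearts. With the block, the log2 fold change of Loxl4 after TAC in WT was -0.01 and that of Plod2 between TAC groups was -0.03.

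Values near 0 changed sign when libraries were left out. These were Loxl3 after TAC in WT (-0.06 to 0.08), Loxl3 (-0.04 to 0.16) and Plod3 (-0.02 to 0.1) between Sham groups, and Plod1 (-0.04 to 0.13) and Plod2 (-0.09 to 0.14) between TAC groups. Differences in log2 ratio to Col1a1 that did so were those after TAC in HCN4F hearts for Lox (-0.08 to 0.14) and Loxl2 (-0.11 to 0.1), after TAC in WT hearts for Loxl1 (-0.16 to 0.09) and Loxl2 (-0.1 to 0.1), between Sham groups for Lox (-0.22 to 0.0), Plod1 (-0.15 to 0.05) and Plod2 (-0.2 to 0.19), and between TAC groups for Lox (-0.07 to 0.04) and Loxl2 (-0.22 to 0.01). With Col3a1 in place of Col1a1, the differences after TAC became 0.04 for Lox, 0.09 for Loxl1 and 0.01 for Plod2 in WT, and 0.0 for Loxl1 and 0.11 for Loxl2 in HCN4F hearts. Depth limited Loxl4, with 13 to 79 reads per library.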
